A study of Mus musculus with 9 samples.

Results

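The genes described here are 31 genes of the stroma and vessels of lymphoid tissue: 7 collagens, 6 matrix glycoproteins and proteoglycans, 2 growth factor receptors of mesenchymal cells, 12 endothelial genes and 4 chemokines of lymphoid stroma. They were taken by name from a list made with earlier results of these data known, out of 18193 mouse genes with at least 1 probe set of their own on the array. Each gene was read in 9 mouse lymphomas on Affymetrix MOE430 2.0 arrays, with 1 array for each tumour. Of these tumours, 5 came from Eμ-Myc;Eμ-TTP-1 mice, called double-transgenic below, and 4 from Eμ-Myc mice. All 9 therefore carried the Eμ-Myc transgene, and all were on a background that was 94% C57BL/6. No treatment was given in the labels, and the age of the mice and the organ of origin of each tumour are not stated in the labels. The labels call the tumours biological replicates.

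As background, Eμ is the enhancer of the immunoglobulin heavy chain locus, which drives a transgene in B-lineage cells, so that Eμ-Myc mice develop B cell lymphomas. TTP is tristetraprolin, an RNA-binding protein that speeds the decay of mRNAs with AU-rich elements. The genes in question are mainly made by the tissue the lymphoma grows in: fibroblasts and pericytes lay down collagens and glycoproteins, endothelium lines blood and lymph vessels, and reticular and follicular dendritic cells make chemokines that place lymphocytes. RNA was prepared from homogenised pieces of tumour, and in such bulk RNA fewer cells of a type and less RNA per cell cannot be told apart.

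Levels are log2 of the intensity that the authors deposited, and a difference is always double-transgenic minus Eμ-Myc. All 7 B cell markers on the array were over log2 4 in every tumour and none of the 5 erythroid markers was high enough to be tested. Arrays correlated with each other at 0.964 to 0.990 among double-transgenic tumours, at 0.970 to 0.981 among Eμ-Myc tumours, and at 0.959 to 0.987 between the genotypes. Of the 31 genes, 29 had a probe set that is listed for that gene alone, and 27 of these passed a filter of log2 over 4 in at least 4 of the 9 arrays and were tested. Tek and Madcam1 missed the filter. Ccl19 and Ccl21a had only probe sets that are listed for several genes, so neither was measured singly.

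Part of what these genes share is their place in the genome. Col4a1 and Col4a2, which encode the chains of the main basement membrane collagen, lie head to head on chromosome 8 and are transcribed away from each other. The annotated starts used here, 11312826 for Col4a1 and 11312805 for Col4a2, are 21 bases apart. The span listed for Col4a1 reaches 11312889, so the genes overlap at these ends. The windows from 250 bases before to 50 bases after each start overlap by 78 bases. These windows are shown because both genes are read from this shared stretch, and those of Col1a2 and Col3a1 because these fibrillar collagens were high in the same tumours (below). The windows come from RefSeq on GRCm38.p6: Col4a1 at chr8:11312777-11313076 on the minus strand, Col4a2 at chr8:11312555-11312854 on the plus strand, Col1a2 at chr6:4505368-4505667 on the plus strand and Col3a1 at chr1:45311288-45311587 on the plus strand. Each is written 5′ to 3′ on the gene's own strand. Capitals mark CCAAT and TATAAA on either strand (ATTGG and TTTATA when read from the other), and no marked motifs overlap in these windows.
Col4a1: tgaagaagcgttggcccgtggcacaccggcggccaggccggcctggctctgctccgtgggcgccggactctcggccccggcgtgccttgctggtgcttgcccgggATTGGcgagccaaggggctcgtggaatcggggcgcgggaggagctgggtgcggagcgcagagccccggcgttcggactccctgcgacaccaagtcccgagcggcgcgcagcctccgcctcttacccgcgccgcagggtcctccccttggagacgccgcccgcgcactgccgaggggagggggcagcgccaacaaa
Col4a2: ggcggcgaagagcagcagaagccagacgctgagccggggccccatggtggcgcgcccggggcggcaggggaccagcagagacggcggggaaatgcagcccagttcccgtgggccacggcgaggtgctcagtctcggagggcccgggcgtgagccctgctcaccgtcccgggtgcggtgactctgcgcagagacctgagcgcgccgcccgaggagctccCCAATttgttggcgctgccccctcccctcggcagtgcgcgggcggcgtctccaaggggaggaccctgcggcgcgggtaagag
Col1a2: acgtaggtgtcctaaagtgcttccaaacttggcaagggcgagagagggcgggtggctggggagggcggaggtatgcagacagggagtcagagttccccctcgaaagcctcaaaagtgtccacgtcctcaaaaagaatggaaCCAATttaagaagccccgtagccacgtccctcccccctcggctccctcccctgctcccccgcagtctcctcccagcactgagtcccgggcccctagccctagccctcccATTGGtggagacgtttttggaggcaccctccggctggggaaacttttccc
Col3a1: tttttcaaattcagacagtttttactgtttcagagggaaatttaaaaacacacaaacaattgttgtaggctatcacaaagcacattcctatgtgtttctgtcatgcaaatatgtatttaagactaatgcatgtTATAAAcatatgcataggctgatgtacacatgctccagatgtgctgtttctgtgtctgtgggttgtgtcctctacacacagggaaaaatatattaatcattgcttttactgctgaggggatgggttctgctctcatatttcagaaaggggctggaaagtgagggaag
CCAAT stood once in the windows of Col4a1 and Col4a2, 2 times in that of Col1a2 and not in that of Col3a1. TATAAA stood once in the window of Col3a1 and in none of the others. Over all 32851 windows of the same length, 37.4% held CCAAT and 13.6% held TATAAA, and a match is a description of the letters only. The share of G and C was 74.0% for Col4a1, 73.7% for Col4a2, 61.0% for Col1a2 and 37.7% for Col3a1. Windows were at hand for 21 of the 31 genes.

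The question put to the genotypes was whether the stroma of lymphomas with the Eμ-TTP-1 transgene differed from that of Eμ-Myc lymphomas. No difference between the genotypes was detected in any of the 27 genes, while single tumours of either genotype lay far apart. Of the 27, 14 averaged higher and 13 lower in double-transgenic tumours, with a median difference of 0.02 beside 0.05 over all 10172 genes tested. Over all genes tested 58.9% averaged higher. By limma with Benjamini-Hochberg adjustment none of the 27 passed an adjusted p of 0.05, and their adjusted p ran from 0.845 to 0.996. None of the 10172 genes passed either (0%), although 577 of them (5.67%) had an unadjusted p under 0.05 in limma. Of the 27 stromal and vascular genes, 1 did, the proteoglycan gene Dcn. In 167 of the 10172 genes (1.64%) the values of the genotypes did not overlap, and this held for none of the 27. Leaving out Eμ-Myc tumour 3 gave 8 genes past the adjusted threshold and leaving out Eμ-Myc tumour 4 gave 1, none of them among the 27.

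The spread between tumours was the larger feature. The SD over the 9 tumours had a median of 1.02 for the 27 genes and 0.36 for all genes tested, and within a genotype these medians were 1.09 and 0.35. All 27 lay above the median SD, and 10 of them in the top 10% by SD. The least variable was Igfbp7, at percentile 64.2. Since the error of a difference follows this spread, the half-width of its 95% interval ran from 0.63 for Dcn to 4.40 for Cxcl13. These intervals are not adjusted for the number of genes tested. A difference within its half-width could not pass the adjusted threshold with these numbers of tumours, and a larger one could miss it too. That of Dcn, at -0.86, did so, with an adjusted p of 0.845 in limma.

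**Figure D1:**
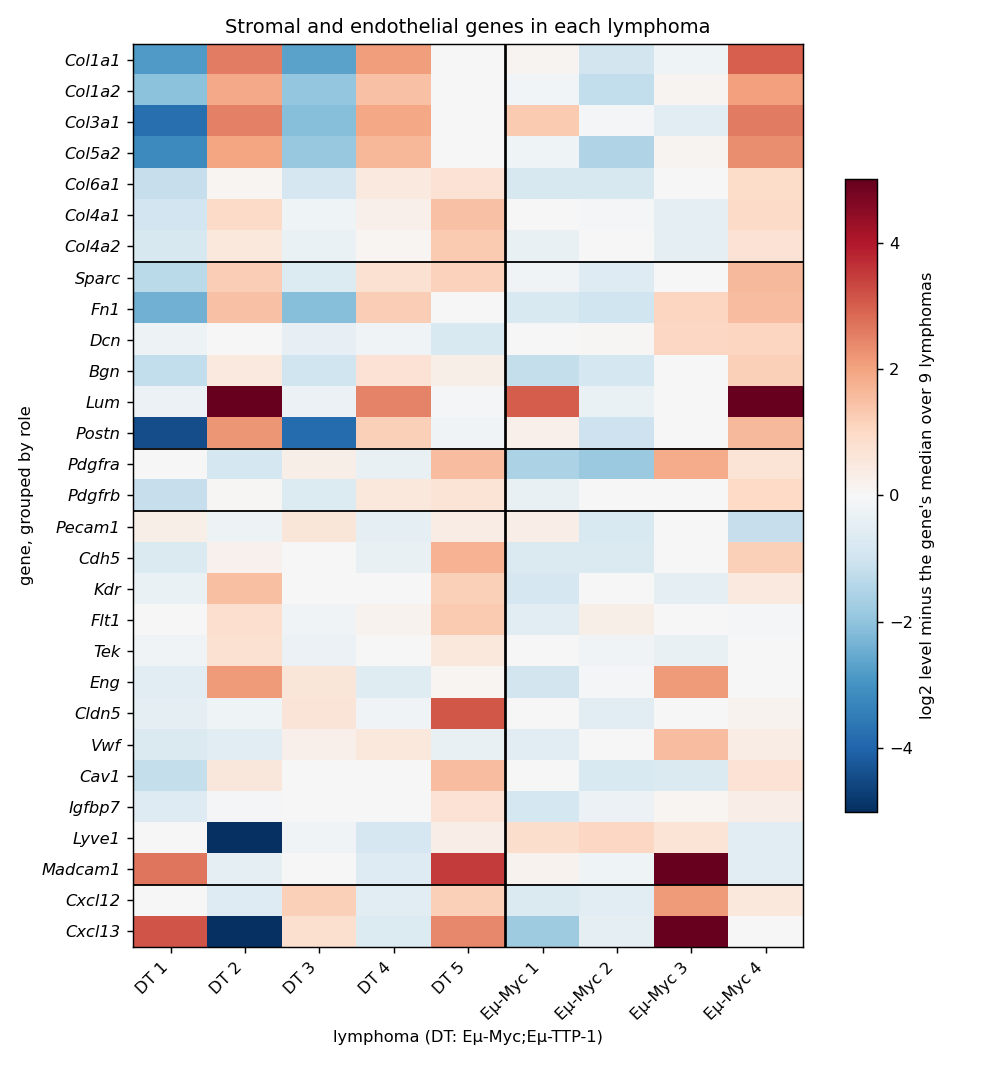
Level of 29 stromal and endothelial genes in 9 lymphomas, as log2 intensity minus the gene's median over the 9 tumours (colour), with genes in rows by role and tumours in columns (DT is double-transgenic). The colour scale ends at 5 on either side, so the extremes of Lum, Lyve1, Madcam1 and Cxcl13 are drawn at its ends. DT 2, DT 4 and Eμ-Myc 4 are red and DT 1 and DT 3 blue for most collagens, while Cxcl13 and Madcam1 are darkest red in Eμ-Myc 3.

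Fibrillar collagens form the cables of connective tissue and are made by fibroblasts. They were high in double-transgenic tumours 2 and 4 and in Eμ-Myc tumour 4, and low in double-transgenic tumours 1 and 3, whichever of these genes was read. Col3a1, the chain of type III collagen found in the reticular fibres of lymphoid organs, was at 8.34, 14.60, 9.97, 14.02 and 12.09 in double-transgenic tumours 1 to 5, and at 13.40, 11.98, 11.57 and 14.71 in Eμ-Myc tumours 1 to 4. That is an 82.6-fold range over the 9 tumours. The highest value was in Eμ-Myc tumour 4 and the lowest in double-transgenic tumour 1, and the Eμ-Myc range lay almost wholly inside the double-transgenic one.

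Type I collagen, the main collagen of scar and connective tissue, is built from the products of Col1a1 and Col1a2. Col1a1 was at 6.62, 12.00, 6.76, 11.52 and 9.43 in double-transgenic tumours 1 to 5, against 9.58, 8.53, 9.21 and 12.41 in Eμ-Myc tumours 1 to 4. Col1a2 was at 9.71, 13.65, 9.84, 13.23 and 11.76 in the double-transgenic tumours, against 11.61, 10.53, 11.90 and 13.80 in the Eμ-Myc tumours. Both put the same tumours at the top and at the bottom as Col3a1 did. Col5a2, a chain of the type V collagen that sets fibril diameter, was at 6.03, 11.19, 7.31, 10.87 and 9.22 in the double-transgenic tumours, against 9.004, 7.70, 9.36 and 11.54 in the Eμ-Myc tumours. Its order was close to that of Col3a1, which is its neighbour on chromosome 1.

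None of these 4 fibrillar genes differed between the genotypes beyond the spread between tumours. The difference was -1.11 ± 1.34 (SE) for Col3a1, with an adjusted p of 0.928 in limma, and -0.67 ± 1.34 for Col1a1, with 0.967. It was -0.32 ± 1.00 for Col1a2 and -0.48 ± 1.20 for Col5a2. Each SE was larger than its difference. Without double-transgenic tumour 1 the difference of Col3a1 was -0.242, and without double-transgenic tumour 2 it was -1.81. Col1a1 averaged 9.27 ± 2.54 in double-transgenic tumours (SD, n = 5) and 9.93 ± 1.71 in Eμ-Myc tumours (SD, n = 4).

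The other collagens varied less. Col6a1, a chain of the microfibrillar type VI collagen, was at 7.62, 8.88, 7.95, 9.26 and 9.52 in double-transgenic tumours 1 to 5, against 8.001, 7.99, 8.79 and 9.72 in Eμ-Myc tumours 1 to 4. Col4a1 was at 10.81, 12.71, 11.54, 12.01 and 13.23 in the double-transgenic tumours, against 11.76, 11.70, 11.31 and 12.71 in the Eμ-Myc tumours. Double-transgenic tumour 5, which sat in the middle for the fibrillar collagens, was the highest for both type IV chains. Col4a2 was at 8.85, 10.17, 9.31, 9.72 and 10.94 in the double-transgenic tumours, against 9.25, 9.63, 9.20 and 10.34 in the Eμ-Myc tumours. Ranges over the 9 tumours were 5.36-fold for Col4a1, 4.24-fold for Col4a2 and 4.28-fold for Col6a1. Among all 7 collagens 3 averaged higher and 4 lower in double-transgenic tumours, with a median difference of -0.32, and Col6a1, one of the 3, turned sign under quantile normalisation and under median centring.

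Matrix glycoproteins and proteoglycans bind collagen fibrils and cells. Postn, Fn1 and Lum followed the fibrillar collagens from tumour to tumour, while Dcn did not. Postn encodes periostin, a protein of activated fibroblasts, and was at 6.02, 12.69, 6.63, 11.64 and 10.29 in double-transgenic tumours 1 to 5, against 10.72, 9.41, 10.46 and 12.06 in Eμ-Myc tumours 1 to 4. Its range was 101-fold, and double-transgenic tumour 2 was the highest and double-transgenic tumour 1 the lowest. Fn1, fibronectin, was at 7.72, 11.57, 7.97, 11.32 and 10.11 in the double-transgenic tumours, against 9.35, 9.10, 11.20 and 11.65 in the Eμ-Myc tumours. Here Eμ-Myc tumour 3 was among the high ones too.

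Lum encodes lumican, a small proteoglycan that spaces collagen fibrils. It was at 2.41, 7.91, 2.40, 5.20 and 2.66 in double-transgenic tumours 1 to 5, against 5.74, 2.39, 2.70 and 8.31 in Eμ-Myc tumours 1 to 4. In 5 tumours it lay at 2.39 to 2.70, under the median probe set of any array, whose intensity was 12.2 to 13.4, so these 5 have no order among them. The tumours with a clear Lum value were double-transgenic tumours 2 and 4 and Eμ-Myc tumours 1 and 4, which were also the 4 highest for Col3a1.

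Dcn encodes decorin, another small proteoglycan, and is the neighbour of Lum on chromosome 10. It was at 10.31, 10.59, 10.15, 10.39 and 9.82 in double-transgenic tumours 1 to 5, against 10.57, 10.64, 11.59 and 11.63 in Eμ-Myc tumours 1 to 4. The groups touched: double-transgenic tumour 2 lay just above Eμ-Myc tumour 1. Dcn averaged 10.25 ± 0.29 in double-transgenic tumours (SD, n = 5) and 11.11 ± 0.58 in Eμ-Myc tumours (SD, n = 4), a difference of -0.86 with a 95% interval of -1.49 to -0.22. The unadjusted p was 0.0138 in limma and 0.0159 in a two-sided exact permutation test over the 126 ways to assign the tumours, in which 0.00794 is the smallest p possible. Adjusted over all genes, limma gave 0.845, so the difference was not established. Its 3.51-fold range over the tumours was far narrower than those of Postn and the fibrillar collagens, and the lowest tumour was double-transgenic tumour 5, where the fibrillar collagens were in the middle.

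Sparc and Bgn were high in nearly the same tumours as the collagens, with a smaller range. Sparc, a collagen-binding protein of remodelling matrix, was at 10.84, 13.42, 11.51, 12.93 and 13.35 in double-transgenic tumours 1 to 5, against 12.02, 11.55, 12.18 and 13.78 in Eμ-Myc tumours 1 to 4. Bgn, biglycan, was at 8.81, 10.52, 9.05, 10.75 and 10.34 in the double-transgenic tumours, against 8.87, 9.16, 10.04 and 11.22 in the Eμ-Myc tumours. For both, Eμ-Myc tumour 4 was the highest and double-transgenic tumour 1 the lowest. Differences between genotypes were 0.02 for Sparc, 0.07 for Bgn, -0.59 for Fn1, -0.67 for Lum and -1.21 for Postn, with adjusted p of 0.925 to 0.996 in limma. Without double-transgenic tumour 1 the difference was -0.355 for Postn and -0.0831 for Fn1. Of the 6 genes, 2 averaged higher and 4 lower in double-transgenic tumours, with a median of -0.63, and the values of Sparc and Bgn, near 0, kept their sign under quantile normalisation and turned it under median centring, which moves all genes by the same amount.

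Counted over the 13 collagen and glycoprotein genes, Eμ-Myc tumour 4 was the highest of the 9 tumours in 10 and among the top 3 in 13. Double-transgenic tumour 2 was among the top 3 in 11 and double-transgenic tumour 4 in 8. Double-transgenic tumour 1 was the lowest in 11, and double-transgenic tumour 3 among the lowest 2 in 10. The median deviation from each gene's middle value was -1.34, 1.46, -0.99, 1.17 and 0.00 in double-transgenic tumours 1 to 5, against -0.16, -0.79, 0.00 and 1.60 in Eμ-Myc tumours 1 to 4. For 7 of these genes, chosen after their values were seen (Col1a1, Col1a2, Col3a1, Col5a2, Fn1, Postn and Lum), it reached -2.81 in double-transgenic tumour 1 and 2.32 in Eμ-Myc tumour 4. The summed intensity of the 7 collagens ran from 3782 to 52572 in double-transgenic tumours and from 10465 to 58249.7 in Eμ-Myc tumours. The lowest sum was that of a double-transgenic tumour and the highest that of an Eμ-Myc tumour.

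**Figure D2:**
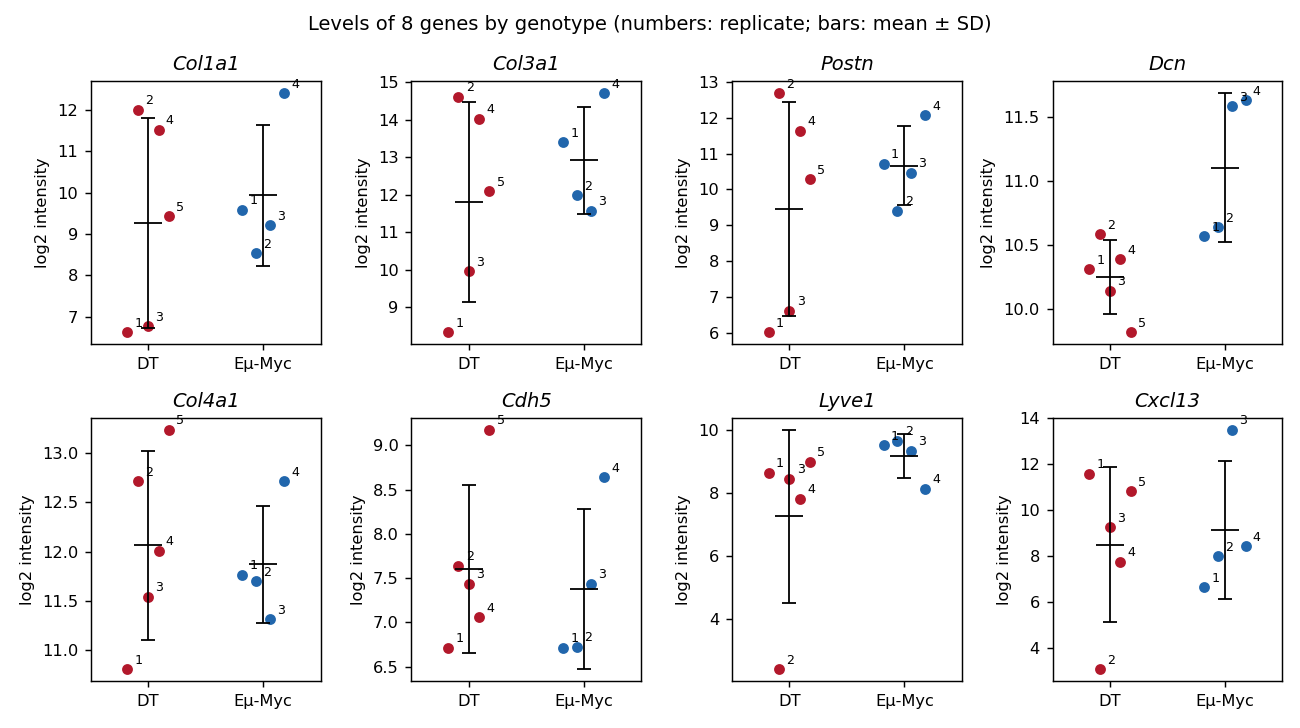
Log2 intensity of 8 genes in each tumour, double-transgenic (DT, red, 5 tumours) left of Eμ-Myc (blue, 4 tumours), with bars for the mean ± SD and the replicate number beside each point. The genotypes overlap in all 8 panels, narrowly for Dcn, and the axes start at different levels.

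Some markers of other cells, chosen after their values were seen, were high in tumours with high matrix genes, while whole marker lists were not always so. Mrc1, the mannose receptor of tissue macrophages, was at 5.39, 10.87, 7.63, 10.58 and 7.30 in double-transgenic tumours 1 to 5, against 10.26, 9.07, 9.08 and 10.75 in Eμ-Myc tumours 1 to 4. Its 4 highest tumours were the 4 highest for Col3a1. The 12 macrophage markers as a list did not follow the matrix genes: their median deviation was 0.20, -0.11, -0.93, 0.50 and -0.12 in double-transgenic tumours 1 to 5, against -0.15, -0.23, 0.98 and 0.34 in Eμ-Myc tumours 1 to 4. The 7 B cell markers had their lowest median deviations in Eμ-Myc tumour 3, at -0.34, and Eμ-Myc tumour 4, at -0.31, the tumours highest for the chemokines and for the matrix genes, and 0.00 to 0.21 in the other 7 tumours. Of the epithelial adhesion genes, Cdh1 was at 7.61 in Eμ-Myc tumour 4 and at 2.67 to 2.84 in the others. Epcam was at 4.32, 2.91, 2.87, 5.54 and 2.83 in the double-transgenic tumours, against 2.97, 2.87, 2.98 and 8.08 in the Eμ-Myc tumours. The summed intensity of the 6 epithelial markers, of which 1 passed the filter, was 40.8 to 508.9 in double-transgenic tumours and 41.9 to 1018 in Eμ-Myc tumours, and no array listed a value of 0. The sum of 508.9 belonged to double-transgenic tumour 2, where only 1 of the 6 markers was over log2 4. That of 1018 belonged to Eμ-Myc tumour 4, where 4 of the 6 were. Double-transgenic tumour 2 had the highest of the 9 values for myeloperoxidase, Mpo, at 10.78. Mpo was only 2.65 in double-transgenic tumour 4, and 6.85, 7.62 and 6.42 in Eμ-Myc tumours 2, 3 and 4. The 7 tested granulocyte markers did not follow the matrix genes either. Their median deviation was -0.95, 4.01, -1.16, 0.00 and -1.15 in double-transgenic tumours 1 to 5, against -0.97, 3.59, 3.87 and 2.94 in Eμ-Myc tumours 1 to 4. The part of these cells in the matrix values was not tested.

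The platelet-derived growth factor receptors mark mesenchymal cells. Pdgfra, found on fibroblasts, was at 7.82, 6.93, 8.10, 7.45 and 9.35 in double-transgenic tumours 1 to 5, against 6.24, 5.96, 9.69 and 8.49 in Eμ-Myc tumours 1 to 4. Its highest tumours were Eμ-Myc tumour 3 and double-transgenic tumour 5, and double-transgenic tumours 2 and 4 were low, unlike their collagen values. Pdgfrb, found on pericytes and other perivascular cells, was at 7.95, 9.16, 8.43, 9.62 and 9.79 in the double-transgenic tumours, against 8.74, 9.07, 9.10 and 10.10 in the Eμ-Myc tumours. Its lowest tumours were double-transgenic tumours 1 and 3, and its highest was Eμ-Myc tumour 4. The difference was 0.33 ± 0.82 (SE) for Pdgfra and -0.26 ± 0.43 for Pdgfrb, with adjusted p of 0.974 and 0.956 in limma. A second Pdgfra probe set over the filter gave -0.28, so its direction was not settled by the probe sets.

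The endothelial genes were ordered otherwise than the fibrillar collagens, but not in a way particular to endothelium. Double-transgenic tumour 5 was the highest in 5 of the 10 tested genes and among the top 3 in 7, and Eμ-Myc tumour 1 was the lowest in 5. Double-transgenic tumour 5 was also the highest in 5 of 10 other tested fibroblast and mural genes, and for both type IV collagen chains. Part of the order was that of the matrix genes. Eμ-Myc tumour 4 was among the top 3 in 6 endothelial genes, and double-transgenic tumour 1 among the lowest 2 in 5. Cdh5, VE-cadherin, which joins endothelial cells, was at 6.72, 7.64, 7.44, 7.06 and 9.18 in double-transgenic tumours 1 to 5, against 6.71, 6.73, 7.44 and 8.64 in Eμ-Myc tumours 1 to 4. Cldn5, the claudin of tight vessels, was at 4.13, 4.39, 5.27, 4.45 and 7.72 in the double-transgenic tumours, against 4.63, 4.12, 4.63 and 4.81 in the Eμ-Myc tumours. Only in double-transgenic tumour 5 was Cldn5 above 5.27, and Cdh5 was highest there too. Cav1, the caveolin of vessel walls and fibroblasts, was at 8.71, 10.47, 9.85, 9.88 and 11.41 in the double-transgenic tumours, against 9.91, 9.12, 9.17 and 10.62 in the Eμ-Myc tumours. Igfbp7, a secreted protein of vessels, was at 11.53, 12.14, 12.20, 12.21 and 12.91 in the double-transgenic tumours, against 11.32, 11.92, 12.28 and 12.52 in the Eμ-Myc tumours. Double-transgenic tumour 5 also had the highest Adipoq value, adiponectin of fat cells, at 7.90. The summed intensity of the 4 adipocyte markers on the array, of which 2 passed the filter, was 2093 to 10257 in double-transgenic tumours and 3546 to 5733 in Eμ-Myc tumours. Adipoq was singled out after its values were seen, and the part of fat cells was not tested.

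Kdr and Flt1 encode the receptors of vascular endothelial growth factor, and Tek that of the angiopoietins. Kdr was at 4.69, 6.52, 5.00, 5.02 and 6.21 in double-transgenic tumours 1 to 5, against 4.16, 5.02, 4.53 and 5.49 in Eμ-Myc tumours 1 to 4. Flt1 was at 4.62, 5.49, 4.47, 4.80 and 5.94 in the double-transgenic tumours, against 4.08, 4.93, 4.63 and 4.57 in the Eμ-Myc tumours. Both were highest in double-transgenic tumours 2 and 5 and lowest in Eμ-Myc tumour 1. Tek was over log2 4 only in double-transgenic tumours 2 and 5, at 4.34 and 4.09, with the other 7 tumours at 3.19 to 3.59. Differences were 0.69 ± 0.45 (SE) for Kdr and 0.51 ± 0.33 for Flt1, each with an adjusted p of 0.867 in limma. The difference of 0.31 for Tek had a two-sided exact permutation p of 0.270.

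Pecam1, Eng and Vwf did not follow Cdh5. Pecam1, which platelets and leukocytes also carry, was at 10.46, 9.89, 10.76, 9.68 and 10.53 in double-transgenic tumours 1 to 5, against 10.48, 9.39, 10.15 and 8.996 in Eμ-Myc tumours 1 to 4. Its lowest value was in Eμ-Myc tumour 4, where Cdh5 was second highest. Eng, endoglin, a co-receptor for transforming growth factor β, was at 6.91, 9.59, 8.06, 6.85 and 7.56 in the double-transgenic tumours, against 6.54, 7.39, 9.60 and 7.46 in the Eμ-Myc tumours. Vwf, the von Willebrand factor of endothelium and megakaryocytes, was at 5.00, 5.16, 5.99, 6.25 and 5.37 in the double-transgenic tumours, against 5.17, 5.73, 7.28 and 6.09 in the Eμ-Myc tumours. Eμ-Myc tumour 3 was the highest for both Eng and Vwf.

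Of the 10 tested endothelial genes 8 averaged higher and 2 lower in double-transgenic tumours, while 58.9% of all genes tested averaged higher. The 10 had a median difference of 0.29 beside 0.05 over all genes tested. Eng, among the 8, turned sign under quantile normalisation and under median centring. None of the 10 passed the adjusted threshold in limma. Differences were 0.51 for Pecam1, 0.23 for Cdh5, 0.65 for Cldn5 (0.0148 without double-transgenic tumour 5), 0.36 for Cav1, 0.19 for Igfbp7, 0.05 for Eng and -0.52 for Vwf.

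Lyve1, the hyaluronan receptor of lymphatic and sinusoidal endothelium and of some macrophages, was at 8.65, 2.42, 8.46, 7.82 and 8.99 in double-transgenic tumours 1 to 5, against 9.52, 9.67, 9.35 and 8.14 in Eμ-Myc tumours 1 to 4. In double-transgenic tumour 2 it was under the median probe set of any array, while the other 8 tumours lay between 7.82 and 9.67. The difference was -1.90 with a 95% interval of -4.82 to 1.01 (adjusted p of 0.867 in limma), and -0.69 without double-transgenic tumour 2. A second Lyve1 probe set was at 3.16 in double-transgenic tumour 2 and at 5.33 to 6.69 in the others.

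**Figure D3:**
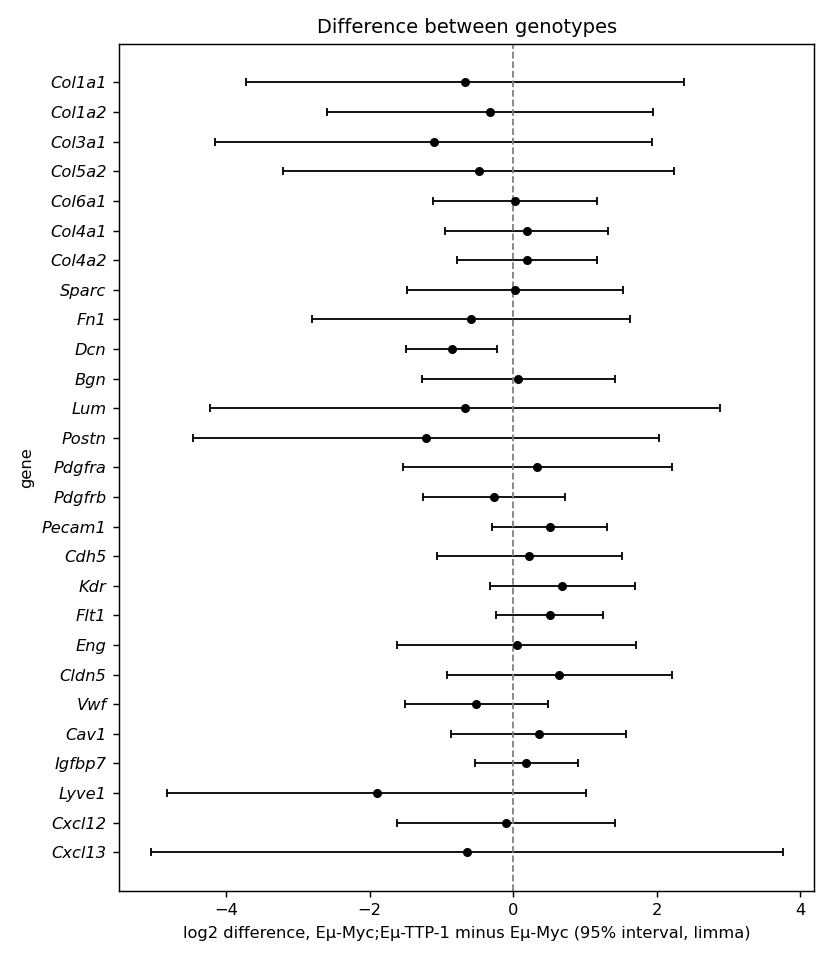
Difference in log2 level between double-transgenic and Eμ-Myc tumours for the 27 tested genes (points), with limma's 95% interval (bars) and a dashed line at 0. The interval of Dcn alone does not reach 0, before any adjustment for the number of genes, and that of Cxcl13 is the widest.

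The lymphoid stroma chemokines and the vessel addressins guide lymphocytes into and through lymphoid organs. Cxcl13, Cxcl12 and Madcam1 were all highest in Eμ-Myc tumour 3. Cxcl13, the chemokine of follicular dendritic cells that draws B cells through Cxcr5, was at 11.57, 3.08, 9.24, 7.74 and 10.81 in double-transgenic tumours 1 to 5, against 6.63, 7.99, 13.48 and 8.43 in Eμ-Myc tumours 1 to 4. It had the widest range of the 29 genes, from under the median probe set of any array to 13.48. Cxcl12, the ligand of Cxcr4 made by reticular cells and endothelium, was at 10.31, 9.68, 11.49, 9.77 and 11.51 in the double-transgenic tumours, against 9.58, 9.74, 12.46 and 10.84 in the Eμ-Myc tumours. Madcam1, the mucosal addressin, was at 5.73, 2.59, 3.04, 2.40 and 6.53 in the double-transgenic tumours, against 3.20, 2.83, 8.18 and 2.53 in the Eμ-Myc tumours. Its 3 values over log2 4 were in Eμ-Myc tumour 3 and double-transgenic tumours 1 and 5, the same 3 that were highest for Cxcl13.

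The probe set that lists Ccl19 among its genes was at 8.44, 4.50, 9.24, 5.88 and 9.44 in double-transgenic tumours 1 to 5, against 5.15, 6.05, 10.70 and 8.04 in Eμ-Myc tumours 1 to 4. The one that lists Ccl21a was at 8.87, 2.26, 11.79, 8.31 and 9.32 in the double-transgenic tumours, against 8.90, 9.22, 11.63 and 9.12 in the Eμ-Myc tumours. Both genes encode ligands of Ccr7, and both probe sets are listed for several genes, so these values belong to no single gene. Each was lowest in double-transgenic tumour 2.

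Genes from the lists of other lymphoid stroma, fibroblast and mural genes can be set beside these. They were chosen after their values were seen. Glycam1, a ligand for L-selectin on high endothelial venules, was at 7.09, 3.10, 11.31, 3.51 and 9.36 in the double-transgenic tumours, against 5.21, 8.80, 11.15 and 4.92 in the Eμ-Myc tumours. Mfge8, a bridging protein of follicular dendritic cells, was at 11.49, 9.15, 11.59, 10.18 and 11.89 in the double-transgenic tumours, against 9.34, 9.44, 12.72 and 9.47 in the Eμ-Myc tumours. Mylk, the myosin light chain kinase of smooth muscle, was at 12.01, 7.29, 10.13, 8.38 and 11.23 in the double-transgenic tumours, against 7.10, 7.47, 12.65 and 8.40 in the Eμ-Myc tumours. In Mfge8 and Mylk the 4 highest tumours were double-transgenic tumours 1, 3 and 5 and Eμ-Myc tumour 3, the same 4 as in Cxcl13. Glycam1 was in the middle in double-transgenic tumour 1. The lists these genes come from did not put double-transgenic tumour 1 high. Its median deviation was -0.03 over the 6 tested lymphoid stroma genes. Over the 10 tested fibroblast and mural genes, among them Mylk, it was -0.94, the lowest of any tumour. In double-transgenic tumour 3 these values were 0.88 and -0.36.

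Neither chemokine differed between genotypes beyond the spread. The difference was -0.65 for Cxcl13, with a 95% interval of -5.05 to 3.76, and -0.10 ± 0.67 (SE) for Cxcl12, with adjusted p of 0.979 and 0.991 in limma. For Madcam1 the difference of -0.13 had a two-sided exact permutation p of 0.929. A second Cxcl12 probe set over the filter correlated with the one used at only 0.489 over the tumours and placed Eμ-Myc tumour 3 near the middle, at 6.95, so the height of Cxcl12 in that tumour rests on 1 probe set. The second Cxcl13 probe set correlated at 0.993 with the first.

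Whether genes of a role were high in the same tumours was asked of 6 pairs over the 9 tumours, with exact permutation tests over all pairings and Benjamini-Hochberg adjustment over the 6. Another 3 pairs had been planned with Ccl19 or Ccl21a and were left out. The chains of type I collagen moved together: Col1a1 and Col1a2 had a Pearson r of 0.988 (adjusted exact permutation p of 1.10e-04) and a Spearman rho of 0.933 (adjusted p of 0.0015, exact permutation). Col1a1 and Col3a1 had an r of 0.954 (adjusted exact permutation p of 1.10e-04) and a rho of 0.983 (adjusted p of 2.98e-04, exact permutation). The head-to-head pair Col4a1 and Col4a2, whose windows are printed above, had an r of 0.975 (adjusted exact permutation p of 1.10e-04) and a rho of 0.933 (adjusted p of 0.0015, exact permutation). Without the 2 tumours farthest from the median of the first gene, r was 0.980, 0.952 and 0.952 for these pairs in that order, and with each genotype's mean removed it was 0.990, 0.958 and 0.974.

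The endothelial pairs asked about, Cdh5 with Kdr and Pecam1 with Cdh5, were less tightly tied than the collagen pairs. They do not speak for endothelial genes as a class. Cdh5 and Kdr had an r of 0.685 (raw exact permutation p of 0.0416, adjusted 0.0624) and a rho of 0.733 (adjusted exact permutation p of 0.0467). Their r was 0.614 without the 2 farthest tumours and 0.855 without double-transgenic tumour 2, in which case it passed the threshold with an adjusted p of 0.00967 (exact permutation). Pecam1 and Cdh5 showed no relation, with an r of -0.108 (adjusted exact permutation p of 0.784) and a rho of -0.083 (adjusted p of 0.843). The r of Col3a1 with Cdh5 was 0.307 (adjusted exact permutation p of 0.508), its rho was 0.400 (adjusted p of 0.349), and without the 2 farthest tumours r was -0.141. Col3a1 and Cdh5 were therefore not shown to be high in the same tumours.

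**Figure D4:**
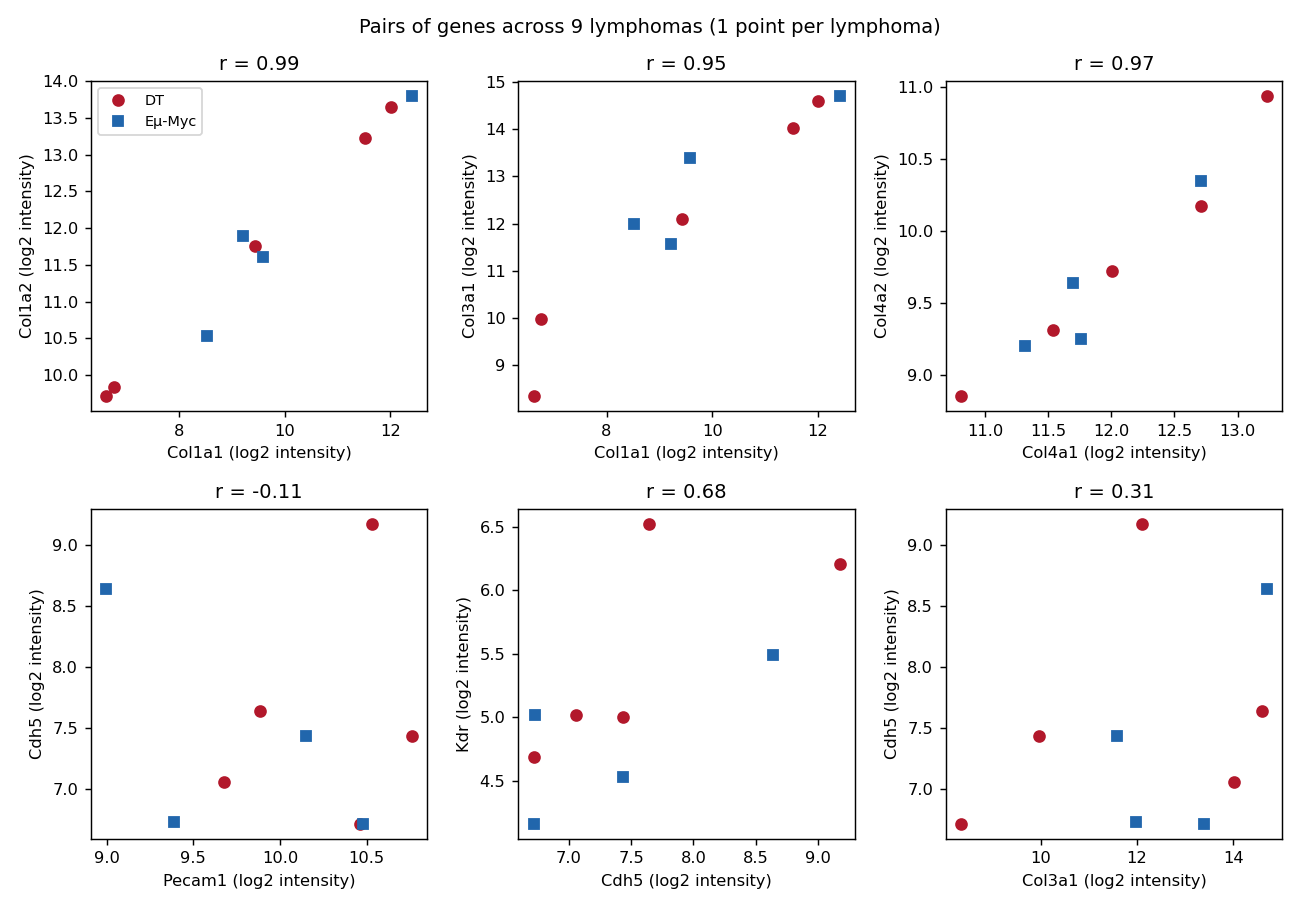
Log2 intensity of 6 pairs of genes, 1 point for each of the 9 tumours (double-transgenic as red circles, Eμ-Myc as blue squares), with Pearson's r above each panel. The collagen pairs in the upper row lie along a line that both genotypes share, and the 3 pairs with Cdh5 in the lower row scatter.

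Of all other tested genes, those whose level followed Col3a1 most closely over the 9 tumours by Pearson's r were Dab2 at 0.977, Mgp at 0.962, Emp1 at 0.957, Idh2 at 0.953, Meg3 at 0.944 and Mrc1 at 0.935. Dab2 is an adaptor for endocytosis, Mgp the matrix Gla protein that inhibits calcification, and Meg3 an imprinted long noncoding RNA. Dab2 was at 2.72, 9.19, 3.34, 8.23 and 6.20 in double-transgenic tumours 1 to 5, against 7.99, 5.54, 6.55 and 8.77 in Eμ-Myc tumours 1 to 4. Those closest to Cdh5 were Mcam at 0.981, Tjp1 at 0.974, Lamb1 at 0.970, Sparcl1 at 0.955, Esam at 0.954 and Cdh13 at 0.945. Mcam is an adhesion molecule of endothelium and pericytes, Tjp1 a tight junction scaffold, Lamb1 a laminin chain of basement membrane and Esam an endothelial adhesion molecule. Mcam was at 6.19, 7.38, 6.84, 6.79 and 8.69 in the double-transgenic tumours, against 5.89, 5.92, 6.83 and 8.11 in the Eμ-Myc tumours. These genes were picked for the highest r among all genes tested, so that r is a description.

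Further genes of the same pathways were read from lists, which were also made with earlier results of these data known. Of 30 other matrix genes, 28 were tested, 12 averaged higher and 16 lower in double-transgenic tumours, and the median was -0.11. The ends were the fibril-associated collagen gene Col14a1 at -1.44 and the fibulin gene Fbln2 at -0.90, and the basement membrane collagen gene Col15a1 at 0.81 and the gelatinase gene Mmp2 at 0.67. Eμ-Myc tumour 4 was the highest in 12 of these 28 genes and double-transgenic tumour 1 the lowest in 14, as it was for most of the 13 matrix genes above. Of 13 other fibroblast and mural genes, 10 were tested and 5 averaged higher and 5 lower, with a median of -0.02, from Dpt (dermatopontin) at -0.94 and Des (desmin) at -0.57 to Tagln (transgelin) at 0.59 and Mylk at 0.90.

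Of 22 other endothelial genes, 19 were tested, 11 averaged higher and 8 lower, and the median was 0.07. The scavenger receptor genes of sinusoidal endothelium Stab2 and Stab1 were at -0.64 and -0.57, and Cd34 and the transcription factor gene Erg at 0.73 and 2.93. Double-transgenic tumour 5 was the highest in 11 of the 19, as it was in 5 of the 10 endothelial genes above. Of 11 other lymphoid stroma genes, 6 were tested, 2 averaged higher and 4 lower, and the median was -0.16. The ends here include Ccr7 at -1.79 and Cxcr5 at 0.47, which are receptors of lymphocytes rather than stromal products, with Glycam1 at -0.65 and Mfge8 at 0.62. None of the genes in these 4 lists passed the adjusted threshold in limma, and 1 of them, among the matrix genes, had an unadjusted p under 0.05.

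Markers of other cells in the tumours were read in the same way, beside the 58.9% of all genes tested that averaged higher. All 12 macrophage markers were tested and 11 averaged lower and 1 higher in double-transgenic tumours, from Marco at -2.46 and Adgre1 at -1.80 to Cd68 at -0.01 and C1qa at 0.09, with a median of -0.25 and summed intensities of 12746 to 35064 in double-transgenic and 17875 to 43190.3 in Eμ-Myc tumours. All 7 tested granulocyte markers averaged lower, with a median of -2.56, from Ngp at -3.15 and S100a9 at -3.11 to Ltf at -1.97 and Mpo at -1.76, and sums of 207 to 21181 in double-transgenic and 804 to 18874 in Eμ-Myc tumours. T cell markers, 4 of 7 tested, had a median of 0.23, from Cd8a at -0.22 to Cd28 at 0.73, and sums of 59.0 to 377 in double-transgenic and 82.1 to 471 in Eμ-Myc tumours. The 7 B cell markers had a median of 0.12, from Cd22 at -1.05 and Pax5 at -0.23 to Vpreb3 at 0.58 and Ebf1 at 0.80. Of the platelet, epithelial and skeletal muscle markers 1 each was tested, Pf4 at -1.08, Krt18 at -1.24 and Mylpf at -0.70, and of the adipocyte markers Fabp4 at -0.03 and Adipoq at 1.24. No marker of these lists passed the adjusted threshold in limma.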

How the data were processed

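RNA of 9 mouse lymphomas had been hybridised to 1 Affymetrix array each. The authors deposited 1 table of intensity values, which the submitters' processing notes trace to GCRMA, a background correction by probe sequence with quantile normalisation and summary by probe set (no version given). The values ran from 1.56 to 123104.7, a linear scale, so log2 was taken without a pseudocount, and no array listed a 0. Scanner files, batches and RNA quality were not analysed here. The platform annotation lists 1 gene for 34945 of the 45037 probe sets, several for 932 and none for 9160; 34741 were matched to RefSeq by gene ID. The probe set with the highest mean stood for each of 18193 genes, and the 10172 over log2 4 (intensity 16) in at least 4 arrays were tested with limma 3.58.1 in R 4.3.3, whose recovery of known differences was tested on simulated data. A p-value was called under 0.05 after Benjamini-Hochberg adjustment over all genes tested. Single values were tested by exact permutation, and pairs by exact permutation of r and rho.

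The members and lists were chosen with earlier results of these data known. Named were all 31 members, up to 2 tested genes at each end of the matrix, fibroblast and mural, endothelial, lymphoid stroma and cell marker lists, and the 6 genes closest to Col3a1 and to Cdh5 by r. Alternatives (filter, pseudocount, choice of probe set, normalisation, array weights, a replicate block and each tumour left out) are in the closing section. The number of arrays limits the precision.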

Additional observations from a re-analysis of the deposited data

Results flagged for a closer look

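Within each genotype the highest and lowest tumour was compared with the others of its group by Dixon's criterion, for which chance gives about 1 in 20 groups. Of the 58 groups that belong to the 29 stromal and vascular genes with values, 2 exceeded it. With the groups of genes chosen after their values were seen, 9 of 82 did, a count that cannot be set against chance.

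Lyve1 was at 2.42 in double-transgenic tumour 2, against 7.82 to 8.99 in the other double-transgenic tumours. Madcam1 was at 8.18 in Eμ-Myc tumour 3, against 2.53 to 3.20 in the other Eμ-Myc tumours. Mfge8 was at 12.72 in the same tumour, against 9.34 to 9.47 in the others.

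The other 6 were markers of cells outside lymphoid stroma, and they were chosen after values were seen. Eμ-Myc tumour 1 had the skeletal muscle genes Acta1 at 10.99, against 3.03 to 3.08 in the other Eμ-Myc tumours, and Myh4 at 9.58, against 3.23 to 3.29. Eμ-Myc tumour 4 had the epithelial genes Epcam at 8.08, against 2.87 to 2.98, and Cdh1 at 7.61, against 2.78 to 2.84. Double-transgenic tumour 2 had Mpo at 10.78, against 2.26 to 2.72 in the other double-transgenic tumours. Acta1 was at 3.48 in double-transgenic tumour 4, against 2.92 to 3.07, all under log2 4. Summed over the 5 skeletal muscle markers, intensities were 61.7 to 139.9 in double-transgenic tumours and 96.7 to 3521 in Eμ-Myc tumours. Their part in the stromal values was not tested.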

How the results depend on the processing

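No stromal or vascular gene was called under any of 19 alternatives, and the reported 95% interval of each difference but that of Dcn included 0. Their median difference ran from -0.348 to 0.298 over the alternatives (spread between tumours 0.609). Of 507 recomputed differences 63 turned sign, in 16 genes, and 11 genes kept theirs throughout. With array weights Bgn was -0.140, Cdh5 -0.0692, Col4a1 -0.0554, Col4a2 -0.0383, Col6a1 -0.100, Cxcl13 0.122, Eng -0.208 and Sparc -0.231. With a replicate block Bgn was -0.0367, Cdh5 -0.168, Col4a1 -0.103, Col4a2 -0.0929, Col6a1 -0.195, Pdgfra -0.0217, Sparc -0.210 and the median -0.210, with 0 genes called; double-transgenic tumour 5, with no partner, adds nothing to that fit. With each genotype's mean removed from every gene, same-numbered tumours correlated at -0.0891, 0.0919, -0.00334 and 0.196. These values showed no pairing but cannot settle whether the numbers pair the samples. With median centring Bgn was -0.00217, Col6a1 -0.0531, Eng -0.0264 and Sparc -0.0513, with quantile normalisation Col6a1 -0.0576 and Eng -0.0479, and with the mean of a gene's probe sets Pdgfra -0.0260. Leaving out 1 tumour at a time gave ranges of -0.245 to 0.540 for Bgn, -0.168 to 0.645 for Cdh5, -1.35 to 0.159 for Col1a1, -0.819 to 0.298 for Col1a2, -0.103 to 0.503 for Col4a1, -0.0929 to 0.438 for Col4a2, -1.04 to 0.244 for Col5a2, -0.195 to 0.387 for Col6a1, -0.459 to 0.498 for Cxcl12, -1.48 to 0.805 for Cxcl13, -0.400 to 0.668 for Eng, -0.0441 to 0.357 for Igfbp7, -1.62 to 0.509 for Lum, -0.210 to 1.03 for Pdgfra, -0.462 to 0.0213 for Pdgfrb and -0.252 to 0.491 for Sparc. Among genes that kept their sign it gave -1.81 to -0.242 for Col3a1, -2.02 to -0.355 for Postn, -1.05 to -0.0831 for Fn1, -0.816 to -0.111 for Vwf, -2.33 to -0.69 for Lyve1, 0.0148 to 0.912 for Cldn5, 0.0225 to 0.698 for Cav1, 0.258 to 0.753 for Pecam1, 0.429 to 0.919 for Kdr, 0.293 to 0.660 for Flt1 and -1.04 to -0.68 for Dcn. It moved the r of Cdh5 and Kdr between 0.540 and 0.855, that of Pecam1 and Cdh5 between -0.497 and 0.320 (above 0 without Eμ-Myc tumour 4), and the number of genes called between 0 and 8. The cause of these shifts was not tested. The 3 pairs with Ccl19 or Ccl21a were not run, because these genes have no probe set of their own.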

Other observations

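Some markers of other cells, chosen after their values were seen, varied between tumours too. Cd3d, part of the T cell receptor complex, was at 4.68, 3.37, 5.64, 4.32 and 5.51 in double-transgenic tumours 1 to 5, against 3.70, 4.01, 2.86 and 8.02 in Eμ-Myc tumours 1 to 4. Its highest value was in Eμ-Myc tumour 4 and its lowest in Eμ-Myc tumour 3. Csf1r, the receptor by which macrophages respond to colony-stimulating factor, was at 10.24, 10.39, 10.65, 10.39 and 10.58 in the double-transgenic tumours, against 9.92, 9.36, 12.33 and 10.81 in the Eμ-Myc tumours. The Eμ-Myc tumours spanned the wider range, with tumour 3, the highest for Cxcl13, at its top. Mpo was over log2 4 in double-transgenic tumour 2 and in Eμ-Myc tumours 2, 3 and 4, and under 3 in the other 5 tumours.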
